A study of Phaseolus vulgaris with 21 samples.

Results

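Secretory floral nectaries of common bean were compared with extrafloral nectaries of its leaves, the glands that feed pollinators at the flower and the glands that feed ants on the vegetative plant. The comparison used 6 of the 21 RNA-seq libraries of the series, 3 for each nectary type, chosen by their labels, and all 6359 transcript rows of the deposited table. All plants were Phaseolus vulgaris cultivar Blue Lake 274, untreated, grown on soil with 16 h of light and 8 h of dark at 250 umol m-2 s-1 and 23 °C. Secretory floral nectaries (called floral nectary here) were taken from fully open flowers 3 h after dawn. Leaf extrafloral nectaries (leaf EFN) were those at the base of the terminal trifoliate leaves, and no hour of sampling is given for them. The other 15 libraries, also in groups of 3, came from leaf, from stem extrafloral nectaries (stem EFN), from floral nectaries 24 h and 12 h before anthesis, and from floral nectaries 12 h after the secretory stage. Nectaries were dissected manually with immediate RNA extraction, libraries were read as 50 bp pairs, and all were pooled over 2 sequencing lanes. The labels do not say whether replicates came from separate plants or how many glands were pooled, so the p-values measure only the spread between these samples.

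Nectaries unload sucrose from the phloem, store or convert it, and release it as nectar through sugar exporters and cell wall invertases, with proton pumps and water channels in the plasma membrane. Floral nectaries form under CRABS CLAW and related floral regulators and mature under MYB factors of the MYB21, MYB24 and MYB305 group, as known from Arabidopsis, tobacco and other flowers. Extrafloral nectaries sit on green organs, secrete over a longer period, and in several plants respond to jasmonate, the hormone of wounding.

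Bean reads were mapped by the authors to soybean transcripts, so each row is named for a soybean transcript, and bean genes without a close soybean copy, or with more than 1, can be merged or split. The values are read counts scaled by the upper quartile of each library and rounded to whole numbers. They are called values here and have no unit of length, so they were compared between libraries and not between genes. Summed values were 3581284 to 3769965 in the floral nectary libraries and 2616502 to 3073936 in the leaf EFN libraries, for an estimated 3354000 to 4350000 and 3053000 to 3633000 mapped reads. Library 1 of the floral nectary was the only library of the 21 with no value of 0. The table therefore appears to hold only transcripts seen in that library: 60 rows were at 0 in all 3 leaf EFN libraries and 0 rows were at 0 in all 3 floral nectary libraries, and a transcript present in the leaf EFN alone would not be listed. Replicates correlated at 0.983 to 0.986 (Pearson's r of log2 values over all rows) in the floral nectary. In the leaf EFN, libraries 1 and 2 correlated at 0.985, and library 3 with them at 0.957 and 0.962.

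The 2 tissues differed widely. Of 6359 rows, 2581 (40.6%) were higher and 1716 (27%) lower in the floral nectary at an adjusted p under 0.05, together 4297 rows (67.6%), in limma on log2(value + 1) with Benjamini-Hochberg adjustment over all rows. Fold changes are given on that scale throughout, floral nectary minus leaf EFN, and the change of a row with values near 0 depends on the pseudocount of 1. Counts of gene list members below are to be read beside the shares of all rows, 40.6% higher and 27% lower. The share of calls that were higher was 60.1% with values as deposited, 54.4% (2365 higher and 1983 lower) when libraries were rescaled by median ratios, and 47.7% (2083 higher and 2286 lower) when they were rescaled to equal upper quartiles over the rows of the table. The median row changed by 0.25 with values as deposited, and the rescalings lowered it by 0.15 and 0.33, so the direction of changes of that size depends on the scaling. In 4705 rows (74%) the 3 libraries of a tissue lay apart from the 3 of the other, 2814 rows (44.3%) with the floral nectary above and 1891 (29.7%) with it below. A test against a 2-fold change called 1825 rows (28.7%), 1198 (18.8%) higher and 627 (9.86%) lower. Among the called rows, 117 (1.84% of all rows) were at least 64-fold higher in the floral nectary and 19 (0.299%) at least 64-fold higher in the leaf EFN. The table appears to hold only transcripts seen in floral nectary library 1, so rows present in the leaf EFN alone could not be counted. Counts of the 2 directions are therefore not on equal terms. The authors' deposited table calls 3420 rows (53.8%) different between these tissues; limma called 1963 of them higher and 1356 lower.

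**Figure D1:**
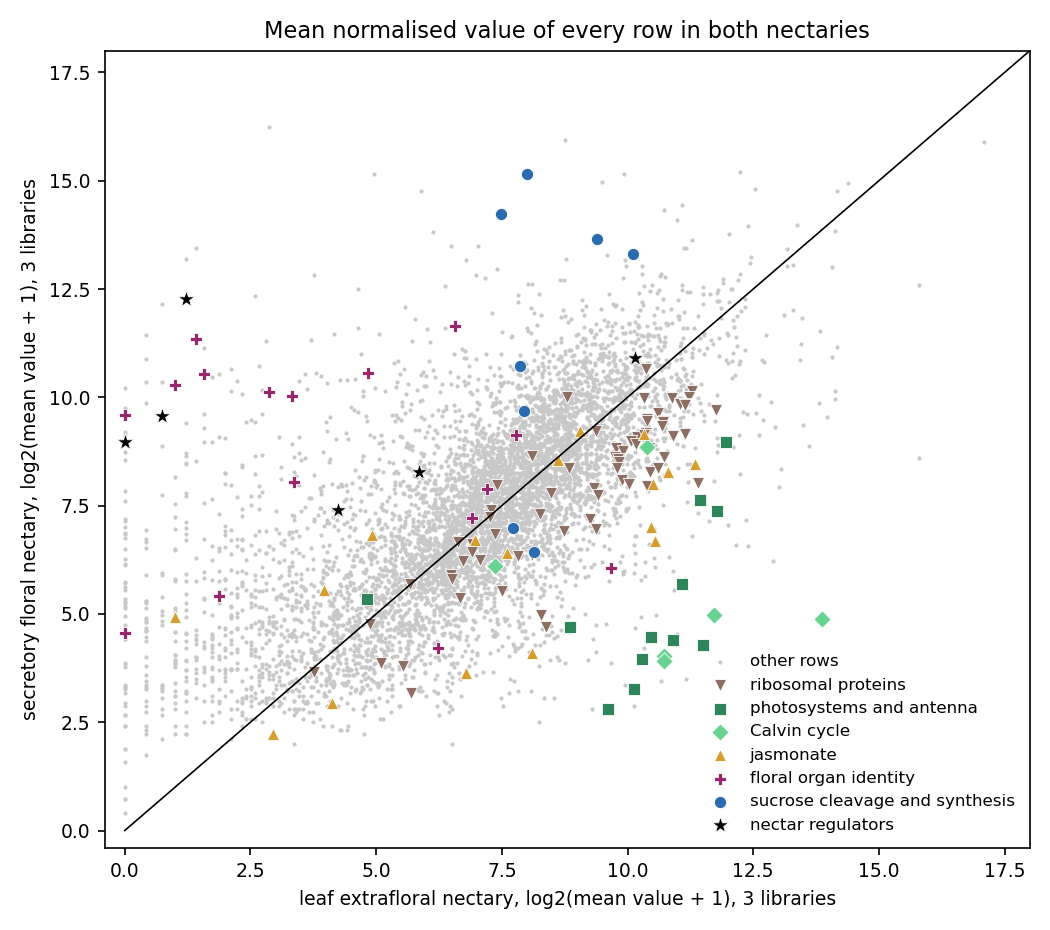
Each point is 1 of 6359 rows, with log2(mean value + 1) of the 3 leaf EFN libraries on the x axis and of the 3 floral nectary libraries on the y axis, and 7 gene lists in colour. The nectar regulators, sucrose enzymes and floral identity genes lie mostly above the diagonal of equal values, and the photosynthesis, jasmonate and ribosomal lists mostly below it.

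The regulators known from floral nectaries of other species were higher in the bean floral nectary. All 7 rows of the nectar regulator list were higher in the floral nectary, with a median change of 8.90 against 0.25 over all rows, and the list summed to 8721 to 9813 in the floral nectary libraries and 1113 to 1376 in the leaf EFN libraries. The MYB305 row (LOC100816972), whose tobacco namesake drives nectarin genes and starch breakdown in the nectary, held 4745, 5362 and 4698 in the floral nectary and 1, 1 and 2 in the leaf EFN (11.07, SE 0.54, adjusted p 3.46e-12). Its means were 7519 at 24 h before anthesis, 11135 at 12 h before and 4337 at 12 h after, against 11.7 in the stem EFN and 0 in the leaf, so this row was high at all 4 floral stages and near 0 in the 3 vegetative tissues. This row and 2 more, MYB98 and MYB182, share their best Arabidopsis match, MYB24, a factor of stamen and nectary maturation, so they may be copies of the same gene or share bean reads. MYB98 held 807, 688 and 778 against 1, 0 and 1 (8.90, adjusted p 5.88e-13), and MYB182 held 507, 459 and 539 and was listed at 0 in every leaf EFN library (adjusted p 1.03e-13). The row matching CRABS CLAW (LOC100500026), the YABBY factor that Arabidopsis needs to form nectaries, held 484, 479 and 528 and was listed at 0 in all 3 leaf EFN libraries (adjusted p 6.53e-17). Its mean was 6571 at 24 h before anthesis, 1825 at 12 h before and 465 at 12 h after, and it was 0 in the leaf and the stem EFN.

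The other 3 regulators were present in both glands. An NPR5-like row (LOC100816086), a relative of the Arabidopsis BLADE-ON-PETIOLE co-activators that shape nectaries and abscission zones, held 283, 334 and 303 in the floral nectary and 61, 47 and 62 in the leaf EFN (2.42, adjusted p 1.93e-09). Its means in the leaf and the stem EFN were 166 and 133, above those of the leaf EFN. A TGA2-like bZIP row (LOC100775280), of the family that binds such co-activators, held 195, 235 and 75 against 21, 15 and 18 (3.01, adjusted p 0.00326), with floral library 3 well below the others. The ARF8-like row (LOC100814479), an auxin response factor of flower maturation, differed least, at 1700, 2256 and 1828 against 1292, 1050 and 1082 (0.75, adjusted p 0.00109). Neither set of 3 libraries overlapped the other in any of the 7 rows, beside 74% of all rows without overlap.

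Floral organ identity genes checked the label of the floral tissue. Of 16 rows, 13 were higher and 2 lower in the floral nectary, with a median of 5.28, and the list summed to 13749 to 15242 in the floral nectary libraries against 1445 to 1689 in the leaf EFN. A DEFICIENS-like row (LOC100784496), a MADS factor of petals and stamens, held 2452, 2821 and 2557 against 1, 3 and 1 (10.01, adjusted p 3.70e-13). The AGAMOUS-like row (LOC100776263), a MADS factor of stamens and carpels, held 745, 699 and 878 and was listed at 0 in every leaf EFN library (adjusted p 4.39e-14). MADS29 held 1283, 1073 and 1400 against 0, 0 and 3, and the AGL5-like row (LOC100792224), whose Arabidopsis namesake acts in the fruit wall, held 1003, 1062 and 1084 against 8, 4 and 15 (6.87, adjusted p 4.48e-11). These 4 rows were at or near 0 in the leaf EFN. A knotted-1-like homeobox row (LOC100800822), of the family that keeps meristem cells undifferentiated, went the other way, at 50, 53 and 93 against 738, 786 and 920 (-3.67, adjusted p 8.03e-11). The 8 carpel markers, which share rows with this list, summed to 5099 to 5988 in the floral nectary and 1375 to 1443 in the leaf EFN (5 higher, 2 lower), and the 3 pollen markers to 456 to 481 and 209 to 312 (2 higher). Whether ovary or stamen base was carried along with the dissected floral nectary was not tested.

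Sugar export and sucrose cleavage genes were far more abundant in the floral nectary. The 16 sugar transporter rows made up 2.02% of all values in the floral nectary and 0.107% in the leaf EFN, and the 8 rows for sucrose cleavage and synthesis 2.19% and 0.111%. In bulk tissue such a difference does not tell apart fewer cells of a type from less RNA per cell. Of the transporters 10 were higher and 2 lower (median 1.40), and of the sucrose enzymes 6 were higher and 2 lower (median 3.07). A SWEET13-like sucrose exporter (LOC100810946), of the clade to which the nectar exporter SWEET9 of Arabidopsis belongs, held 61724, 48909 and 76977 in the floral nectary and 386, 202 and 698 in the leaf EFN, a mean of 62537 ± 14052 against 429 ± 251 (SD, n = 3; 7.34, SE 0.46, adjusted p 1.00e-10). The leaf and the stem EFN had means of 1577 and 1435 for this row, so the leaf EFN was not above the blade. In the floral nectary this row made up most of the transporter list, which summed to 73462, 60876 and 89286. A SWEET6b-like row (LOC100791284) held 6767, 6913 and 8196 against 27, 4 and 7 (9.45, adjusted p 1.11e-11).

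Further SWEET rows, chosen after their values were seen, had the same direction. A SWEET14-like row (LOC100810962) held 799, 436 and 411 against 111, 69 and 99 (2.51, adjusted p 1.57e-06), and a row of the SWEET family by its Arabidopsis match (LOC102669242) held 1632, 1658 and 2036 against 24, 27 and 68 (5.60, adjusted p 4.31e-09). The SWEET15-like row (LOC100800347) held 28, 26 and 12 against 0, 0 and 53, so its libraries overlapped and its call was lost in 8 alternatives besides the 2-fold test, for example at an adjusted p of 0.222 without leaf EFN library 2. SUT1, a proton-coupled sucrose importer, held 1165, 1004 and 878 against 833, 713 and 710 (0.43, adjusted p 0.0197), but its call was lost under equal upper quartiles (0.09, adjusted p 0.59), under median ratios (adjusted p 0.111), and without floral nectary library 1 (0.101), leaf EFN library 2 (0.0639) or leaf EFN library 3 (0.0583). Hexose importers went both ways. The sugar transport protein 11 row (LOC100786876, chosen after its values were seen) held only 14, 11 and 12 against 3, 4 and 3 (1.62, adjusted p 0.0115). The authors did not call that low row different. STP1 held 104, 90 and 97 against 255, 300 and 305 (-1.55, adjusted p 9.52e-05), and an STP13-like row (LOC100799040) 22, 16 and 8 against 36, 44 and 45 (-1.48, adjusted p 0.00267). Nor did the authors call the STP13-like row, the SWEET15-like row or SUT1 different.

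Sucrose synthase, which splits sucrose into UDP-glucose and fructose, was higher in both of its rows. LOC100802045 held 30169, 31764 and 46905 against 260, 260 and 244 (7.12, SE 0.36, adjusted p 5.10e-12), and the row SS, chosen after its values were seen, 9154, 9981 and 11235 against 1181, 1267 and 869 (3.21, adjusted p 6.09e-09). Cell wall invertases, which split sucrose outside the cell and are needed for nectar secretion in Arabidopsis, followed. LOC100777418 held 14325, 15406 and 27792 against 281, 184 and 70 (6.89, adjusted p 3.37e-09), and CWINV 11746, 11440 and 15201 against 657, 641 and 705 (4.25, adjusted p 8.34e-11). A row matching an Arabidopsis inhibitor of cell wall and vacuolar invertase (LOC100500640) had the largest change of all rows, at 65027, 70960 and 95097 against 9, 7 and 3 (13.44, SE 1.06, adjusted p 2.21e-09). That inhibitor match averaged 156657 at 12 h before anthesis and 200 in the stem EFN, so enzyme and inhibitor rows were high in the same floral libraries. A sucrose-phosphatase-like row (LOC100796915, chosen after its values were seen), the last step of sucrose synthesis, was also higher, at 856, 730 and 877 against 290, 240 and 201 (1.76, adjusted p 3.55e-06). Neutral invertase rows went both ways. LOC100803655 was lower, at 97, 87 and 71 against 302, 314 and 222 (-1.70), as was LOC100794258, at 132, 115 and 131 against 226, 210 and 192 (-0.73). LOC100785091, chosen after its values were seen, was higher, at 1603, 1623 and 1827 against 296, 260 and 139 (2.93, adjusted p 2.21e-08).

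**Figure D2:**
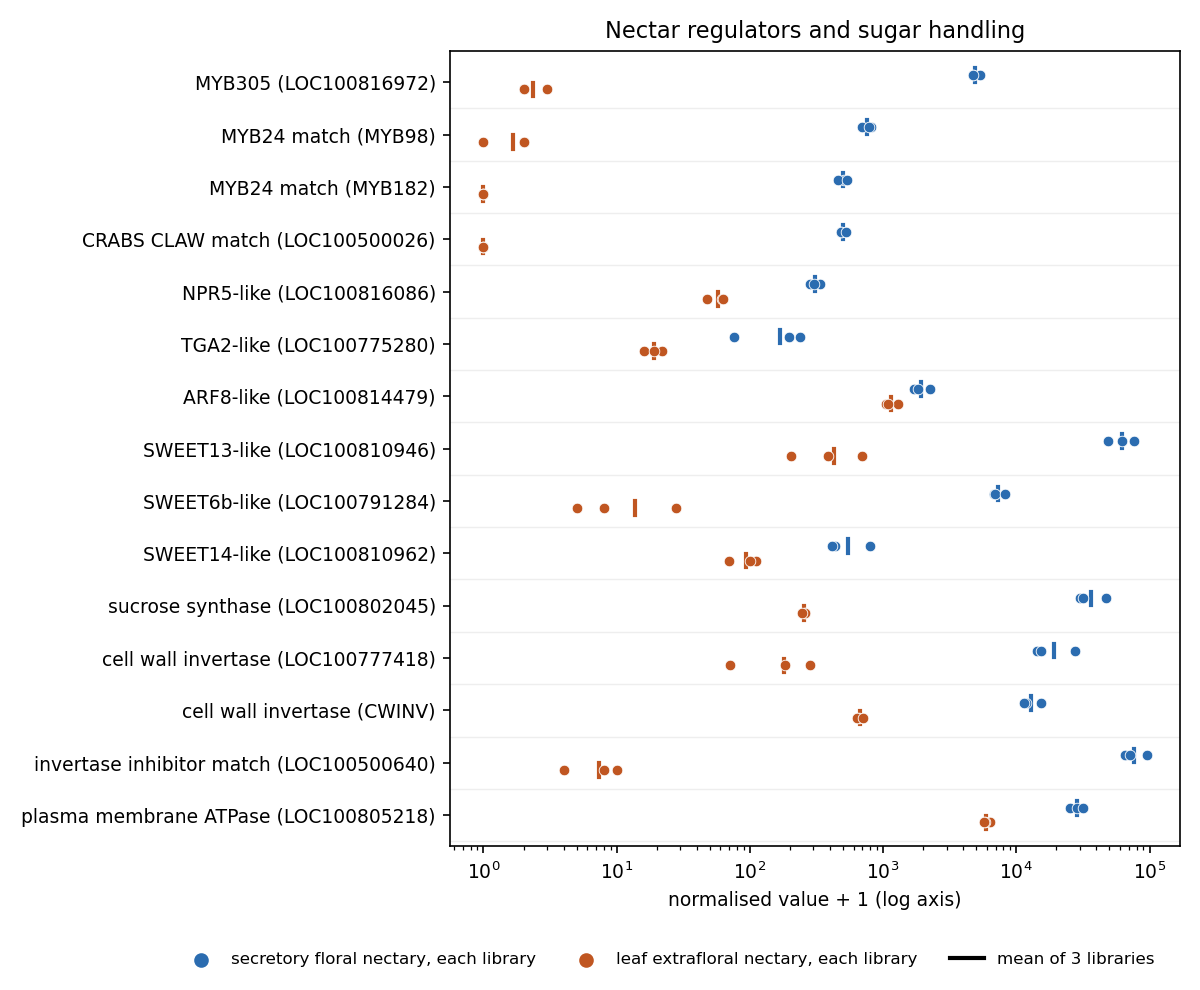
Value + 1 in each library (log axis) for 15 rows, with 3 floral nectary and 3 leaf EFN libraries as points. The floral nectary points lie above the leaf EFN points in all 15 rows; the ARF8-like row has the narrowest gap, and the invertase inhibitor match runs from 3 to 9 in the leaf EFN and from 65027 to 95097 in the floral nectary.

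Starch genes were divided, with 4 of 17 (23.5%) higher and 9 (52.9%) lower in the floral nectary (median -0.58). The shares over all rows were 40.6% and 27%. A beta-amylase row (BMY1_NM_001249318.1), which releases maltose from starch, held 430, 715 and 532 against 6674, 5429 and 2105 (-2.95, adjusted p 5.80e-07). The DPE2-like transferase (LOC100793021), which uses that maltose in the cytosol, held 66, 74 and 60 against 411, 398 and 456 (-2.65, adjusted p 1.15e-10), and a starch synthase row (LOC100301883) 293, 261 and 270 against 943, 917 and 948 (-1.77). Rows higher in the floral nectary included a second BMY1 transcript, described as an inactive beta-amylase (BMY1_NM_001249435.1; 6021, 6744 and 5400 against 1367, 1451 and 1030; 2.25), and BMY2 (0.83, adjusted p 0.0101), whose call was lost under equal upper quartiles (adjusted p 0.0926) and without leaf EFN library 3 (adjusted p 0.0813). Starch rows named here were well above 0 in both glands.

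Proton pumps and water channels split by family member. Of 23 rows, 11 (47.8%) were higher and 5 (21.7%) lower (median 0.37), beside 40.6% and 27% over all rows. The count of higher rows was 7 under equal upper quartiles. A plasma membrane H+-ATPase (LOC100805218, chosen after its values were seen), which energises sugar transport, held 25310, 28543 and 31705 against 6321, 5849 and 5728 (2.25, adjusted p 2.12e-06). Of 8 rows for the V-type pump of the vacuole 4 were higher and 0 lower. Of 10 aquaporin rows 4 were higher and 4 lower. The tonoplast channel TIP4-1 (LOC100793258) held 3331, 2992 and 2983 against 21, 15 and 36 (7.04, adjusted p 2.31e-11), and the plasma membrane channel PIP2-1 (LOC100815583) 5517, 5105 and 3022 against 1082, 884 and 556 (2.44, adjusted p 3.33e-06). In contrast, PIP 7a (LOC100791447) held 1042, 998 and 760 against 17903, 15103 and 10024 (-3.91, adjusted p 5.39e-11), with a leaf mean of 5689. Further plasma membrane channels, chosen after their values were seen, also went both ways. A PIP1-2-like row (LOC100793242) held 1426, 1765 and 1624 against 283, 179 and 170 (2.96, adjusted p 0.000195), while PIP1, not caught by the list's wording, held 366, 323 and 282 against 12281, 8697 and 4631 (-4.62, adjusted p 2.42e-08), and a PIP1-4-like row (LOC100803259) 335, 266 and 303 against 7622, 4365 and 2433 (-3.85, adjusted p 4.79e-07). Libraries of the tissues did not overlap in these 6 rows, which were chosen by small adjusted p or after their values were seen. The same held for 74% of all rows.

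Rows for small secreted proteins were among the most floral. A snakin-2-like row (LOC100795140), a cysteine-rich antimicrobial peptide of the GAST1 family, held 9097, 7135 and 11868 against 1, 3 and 0 (12.16, adjusted p 5.87e-09). Rows matching the lipid-transfer and protease-inhibitor fold were LOC100500124, at 10902, 9787 and 12744 against 1, 1 and 3 (12.10), and LOC100306273, at 4971, 4179 and 4576 against 0, 1 and 1 (11.49). Albumin 1 (A1), which in legume seeds is a small storage and insect-toxic peptide, held 39199, 28857 and 42063 against 6, 9 and 75 (11.02, adjusted p 1.25e-08). A row matching RALF, a family of secreted signal peptides (LOC100306584), held 1155, 1252 and 1179 and was listed at 0 in every leaf EFN library (adjusted p 3.46e-12), the highest floral mean among the 60 such rows. Other rows of this size were a YABBY match (LOC100499942; 2706, 2595 and 3056 against 0, 1 and 0), a potassium transporter (LOC100814313; 1312, 1618 and 2707 against 0, 0 and 1) and a SAUR auxin-response row (LOC100794597; 1172, 1046 and 1691 against 0, 1 and 0). The 117 rows at least 64-fold higher in the floral nectary summed in the leaf EFN libraries to 0.472, 0.383 and 0.512% of their floral mean. A low share follows from how these rows were chosen.

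Rows of the protein turnover and cell death list were mostly higher in the floral nectary. Of 30 rows, 18 were higher and 3 lower, and 15 of 21 were higher and 0 lower once 9 protease inhibitors and exonucleases caught by the list's wording were left out. The list summed to 107243 to 112548 in the floral nectary and 27903 to 29745 in the leaf EFN. Metacaspase-9 (LOC100781510), a protease of developmental cell death in Arabidopsis xylem, held 6258, 5295 and 4031 against 1, 0 and 3 (11.32, adjusted p 6.55e-14). Its floral means were 13 at 24 h and 137 at 12 h before anthesis and 4311 at 12 h after. The cysteine proteinase CYSP1 held 35817, 31898 and 28456 against 878, 776 and 511 (5.50, adjusted p 3.52e-12), and autophagy-related protein 9 (LOC732654), which brings membrane to the forming autophagosome, 1130, 1388 and 1086 against 158, 145 and 128 (3.05, adjusted p 8.32e-10). Of 9 autophagy rows 8 were higher and 0 lower. The rows that were lower included 2 cystatins, inhibitors of such proteases: LOC100802909 (108, 67 and 106 against 392, 329 and 225; -1.74) and LOC547875 (2124, 1604 and 1807 against 4509, 4826 and 2546; -1.06). Vacuolar processing enzyme 2 (VPE2, chosen after its values were seen) held 2107, 2194 and 1635 against 2127, 2942 and 5761 and was not called (adjusted p 0.16). Further cysteine proteases, also chosen after their values were seen, went both ways. LOC100170694, outside this list, held 1055, 976 and 948 against 15164, 19438 and 19105 (-4.16, adjusted p 1.53e-10). An RD21a-like row (LOC100807362) held 33079, 38335 and 41932 against 5107, 5313 and 3987 (2.98, adjusted p 2.16e-08).

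NAC and WRKY factors, many of them regulators of senescence and stress, were higher in 26 of 40 rows (65%) and lower in 7 (17.5%) (median 1.15). The shares over all rows were 40.6% and 27%. A NAC92-like row (LOC100785620), a relative of the Arabidopsis senescence factor ORE1, held 5957, 4923 and 4716 against 6, 7 and 2 (9.87, adjusted p 8.73e-10). It averaged 191 at 24 h and 942 at 12 h before anthesis and 4529 at 12 h after, so both this row and metacaspase-9 were far lower in the younger floral nectaries. NAC22 held 1144, 1201 and 1063 against 186, 149 and 185 (2.71, adjusted p 9.21e-12). The NAC68-like row (LOC100815663) was reversed, at 9, 7 and 9 against 200, 331 and 280 (-4.84, adjusted p 1.70e-08).

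Of 36 ethylene rows 21 (58.3%) were higher and 4 (11.1%) lower in the floral nectary (median 1.06), and of 44 auxin rows 26 (59.1%) and 4 (9.09%) (median 1.59), beside 40.6% and 27% over all rows. ACC oxidase makes ethylene in its last step, and 4 of its 7 rows were higher and 1 lower. LOC100815336 held 5148, 6248 and 5876 against 26, 41 and 5 (8.24, adjusted p 3.81e-10), and LOC100790622 held 958, 793 and 594 against 10, 2 and 5 (7.04, adjusted p 3.43e-11). An EIN3 row (LOC100777079), the factor that carries the ethylene signal in the nucleus, was 14375, 16813 and 16295 against 5606, 5300 and 5150 (1.56, adjusted p 6.52e-05; chosen after its values were seen). Ethylene response factors divided, and the ERF row LOC100795866 was lower, at 142, 110 and 108 against 707, 652 and 508 (-2.36).

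Among auxin rows, YUCCA-type monooxygenases make the hormone, and the row LOC100819987 held 184, 177 and 219 in the floral nectary and was listed at 0 in all leaf EFN libraries (adjusted p 3.13e-11). A 5NG4-like row (LOC100811984), of a family of small-molecule membrane carriers, held 2041, 2348 and 2371 against 2, 1 and 3 (9.61, adjusted p 1.03e-13), and 7 of 9 such rows were higher and 2 lower. GH3 enzymes inactivate auxin, and LOC100794598 was lower, at 481, 477 and 548 against 929, 903 and 1063 (-0.94). Of 21 abscisic acid and gibberellin rows 9 (42.9%) were higher and 6 (28.6%) lower, close to the shares over all rows. NCED (LOC100780284), the committed step of abscisic acid synthesis, held 2036, 2439 and 1698 against 74, 93 and 112 (4.46, adjusted p 3.04e-08). A gibberellin 20-oxidase (LOC100816992), a late step of gibberellin synthesis, held 252, 211 and 203 against 0, 0 and 4 (7.02), while GAI1, a DELLA repressor of gibberellin responses, held 19, 13 and 13 against 78, 84 and 59 (-2.23). GAI1 was not called different by the authors. No row given here for these 4 hormones overlapped between the tissues. They were chosen by small adjusted p or after their values were seen, and 74% of all rows did not overlap.

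Photosynthesis separated the glands in the opposite direction. Of 12 photosystem and antenna rows 0 were higher and 11 lower in the floral nectary (median -5.68), and all 6 Calvin cycle rows were lower (median -6.71). The Rubisco small subunit (LOC100794277), part of the enzyme that fixes CO2, held 28, 27 and 31 against 25660, 13522 and 5680 (-8.73, adjusted p 2.76e-12), with leaf EFN library 3 well below library 1. Photosystem I subunit D (LOC100800992) held 18, 19 and 18 against 3415, 2416 and 2836 (-7.21, adjusted p 1.19e-13). Rubisco activase (RCAALPHA) held 17, 17 and 8 against 2024, 1711 and 1335 (-6.87), and the antenna row CAB3 473, 388 and 644 against 4728, 2954 and 4185 (-2.98). A chlorophyll-binding protein 4 row (LOC100786260, chosen after its values were seen) was the member not called, at 33, 42 and 44 against 36, 17 and 29 (0.57, adjusted p 0.0643).

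The leaf EFN itself held far lower photosynthesis values than the leaf. The photosystem list summed to 956 to 1250 in the floral nectary, 18103 to 27407 in the leaf EFN, 87140 to 107238 in the stem EFN and 213572 to 400886 in the leaf, 4 ranges that did not overlap. The 7 mesophyll markers, 1 higher and 5 lower, followed the same order: 1066 to 1362, 8894 to 13544, 54232 to 73737 and 150603 to 271379. The marker list may share antenna rows with the photosystem list, so its order is not separate evidence. The part of attached green leaf cells in the leaf EFN values was not tested. Other rows of plastid function were lower as well, such as thiazole synthase of vitamin B1 synthesis (LOC100794288; 14, 6 and 10 against 2228, 1395 and 1239; -7.22) and a cupredoxin match (LOC100499708; 4, 5 and 10 against 1648, 1065 and 645; -7.24).

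Jasmonate genes were higher in the leaf EFN, with 3 of 17 rows higher and 9 lower in the floral nectary (median -1.14) and sums of 2869 to 3441 against 9571 to 14001. The list summed to 9238 to 10935 in the leaf and 9472 to 24463 in the stem EFN. Both ranges overlapped that of the leaf EFN, so its list sum was not above the leaf blade. Synthesis begins with lipoxygenases. A 13S-lipoxygenase (LOC100811820) held 219, 277 and 263 against 1401, 1525 and 1462 (-2.53, adjusted p 1.59e-06). VLXB and LOX9, both chosen after their values were seen and matching Arabidopsis lipoxygenases that are not known to feed jasmonate, held 61, 57 and 186 against 1420, 2376 and 700 (-3.93, adjusted p 0.000126) and 62, 72 and 247 against 1033, 1446 and 1753 (-3.72, adjusted p 1.46e-05). Floral library 3 was the highest of its group in both. Their vegetative levels differed, since VLXB averaged 0 in the leaf and 3730 in the stem EFN, and LOX9 averaged 5546 in the leaf.

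Allene oxide synthase, the step that commits to jasmonate, was lower in the floral nectary in AOS2 (8, 11 and 15 against 126, 127 and 77; -3.17, adjusted p 4.14e-06) and CYP74A1 (17, 11 and 20 against 274, 306 and 236; -4.04, adjusted p 0.000194; chosen after its values were seen). JAZ proteins, also called TIFY, repress jasmonate responses and are switched on by the hormone. The TIFY 11B-like row (LOC100778559) held 432, 309 and 315 against 2994, 3425 and 1391 (-2.80, adjusted p 3.18e-06), and a TIFY 10A-like row (LOC100801449, chosen after its values were seen) 298, 308 and 321 against 1913, 2354 and 1115 (-2.47, adjusted p 6.03e-06). Their leaf means were 183 and 75.7, far below the leaf EFN. Floral nectaries of other stages reached levels near the leaf EFN. The TIFY 11B-like row averaged 2552 at 24 h before anthesis, 1376 at 12 h before and 1481 at 12 h after, against 2603 in the leaf EFN. The TIFY 10A-like row averaged 524, 334 and 2048 at these stages, against 1794 in the leaf EFN. Other rows of the list had the opposite direction: LOX2 held 29, 19 and 40 against 0, 1 and 2 (4.00), LOC547869 116, 65 and 154 against 8, 34 and 46 (2.11, adjusted p 0.0179) and a TIFY 4B-like transcript (LOC100808970_XM_006606013.2) was higher by 1.77. LOX2 and LOC547869 are lipoxygenase rows with the same Arabidopsis match as LOX9, which is not known to feed jasmonate. The call of LOC547869 was lost without floral nectary library 3 (adjusted p 0.0685) or leaf EFN library 1 (adjusted p 0.124). LOX2 and the TIFY 4B-like transcript were not called different by the authors.

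Since the leaf EFN was dissected and its RNA extracted in the same way, wound markers were read beside these rows. Of 9 wound markers 4 (44.4%) were higher and 2 (22.2%) lower in the floral nectary, near the 40.6% and 27% over all rows. The markers summed to 4558 to 5198 there and 1452 to 1790 in the leaf EFN, and most of the floral sum was the ZAT5 row. ZAT5 (LOC100794834), a zinc finger factor, held 3269, 2940 and 3114 against 91, 70 and 85 (5.23, adjusted p 6.56e-13), and WRKY78 (LOC732588), which matches the Arabidopsis stress factor WRKY40, held 46, 33 and 41 against 237, 218 and 207 (-2.45, adjusted p 0.000292). No common direction was seen among the wound markers, and their part in the jasmonate values was not tested.

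**Figure D3:**
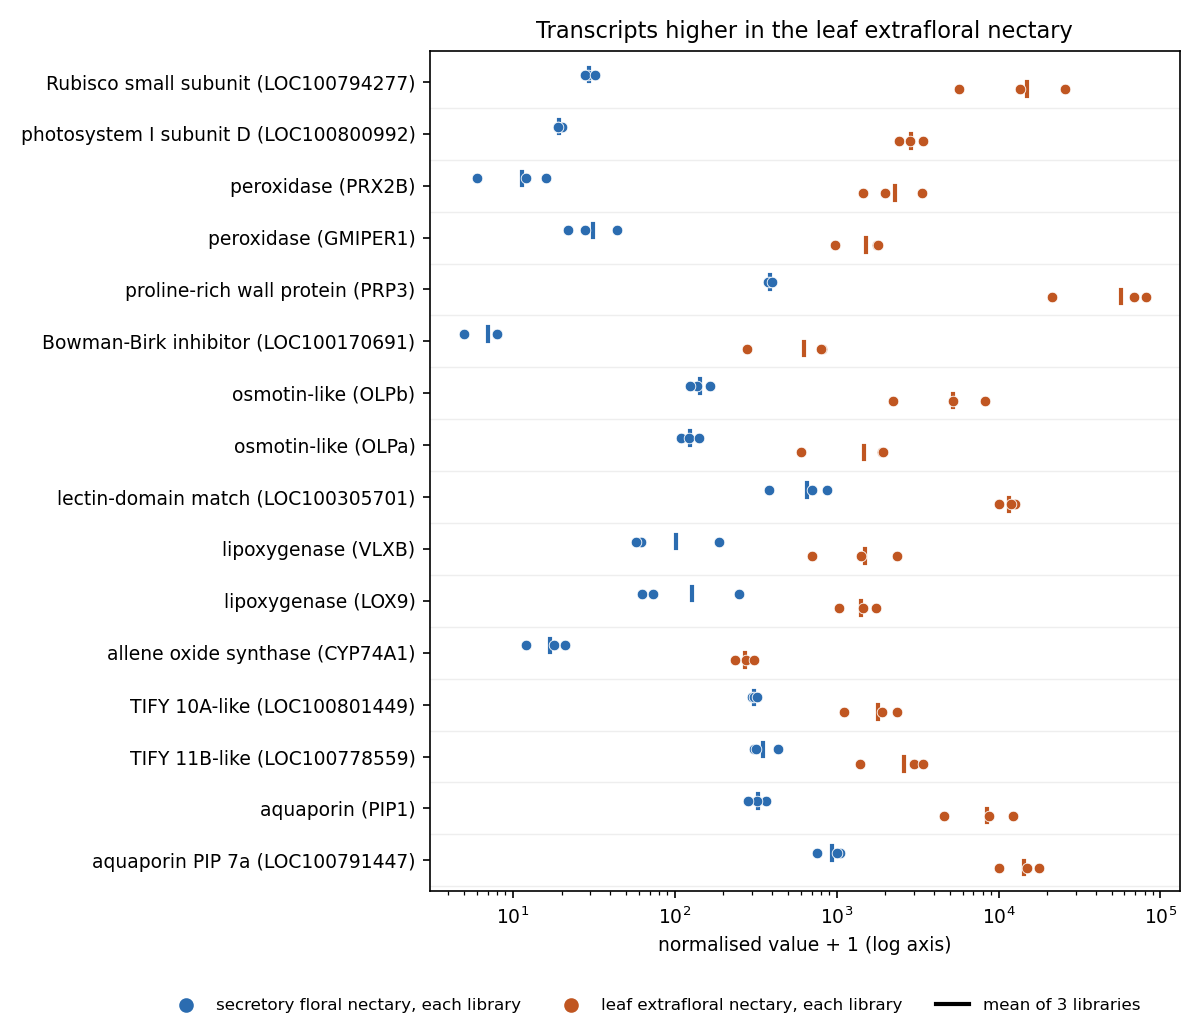
Value + 1 in each library (log axis) for 16 rows that were lower in the floral nectary, with 3 libraries per tissue as points. The leaf EFN points lie above the floral nectary points in all 16 rows, and library-to-library spread is wide in several leaf EFN rows, as for the Rubisco small subunit at 5680 to 25660.

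Of 57 rows for defence and secreted proteins 26 (45.6%) were higher and 17 (29.8%) lower in the floral nectary (median 0.61), close to the 40.6% and 27% over all rows, and single members had wide gaps in either direction. In the leaf EFN, the Bowman-Birk inhibitor (LOC100170691), which blocks insect digestive proteases, held 807, 799 and 277 against 7, 4 and 7 in the floral nectary (-6.37, adjusted p 6.24e-09). The osmotin-like protein OLPb, an antifungal protein of the PR-5 class, held 5249, 8207 and 2219 in the leaf EFN against 137, 165 and 123 (-5.01, adjusted p 8.07e-08; chosen after its values were seen). Their leaf means were 31.7 and 105. A lectin-domain match (LOC100305701, chosen after its values were seen) held 12565, 10100 and 11968 in the leaf EFN against 706, 877 and 381 (-4.22, adjusted p 1.76e-05), with a mean of 34169 in the stem EFN and 1.67 in the leaf. In the floral nectary, a glucanase (LOC100790277), which attacks fungal walls, held 521, 588 and 521 against 11, 10 and 9 (5.63), and an acidic chitinase (LOC100815291, chosen after its values were seen) held 5944, 5081 and 5096 against 179, 445 and 284 (4.24, adjusted p 1.12e-07).

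Redox enzymes were higher in the leaf EFN, at 11 of 59 rows higher and 32 lower in the floral nectary (median -0.76). Summed values were 67601 to 77108 in the leaf EFN and 32003 to 35784 in the floral nectary. Of 16 peroxidase rows, enzymes that use hydrogen peroxide in wall cross-linking and defence, 3 were higher and 8 lower. PRX2B held 11, 5 and 15 against 3368, 1999 and 1464 (-7.68, adjusted p 3.65e-12) and PRX2 17, 20 and 30 against 3276, 1795 and 996 (-6.31), while a cationic peroxidase row (LOC100789782) was floral, at 459, 487 and 550 against 1, 6 and 0 (7.69). A pathogen-induced peroxidase (GMIPER1, chosen after its values were seen) held 27, 21 and 43 against 978, 1781 and 1788 (-5.60, adjusted p 2.42e-10). Of 9 glutathione S-transferase rows, which conjugate toxins and oxidised lipids, 0 were higher and 6 lower, led by LOC100819783 (146, 137 and 136 against 3368, 3930 and 2168; -4.45, adjusted p 6.72e-12).

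Cell wall genes were higher in the floral nectary in 26 of 49 rows (53.1%) and lower in 4 (8.16%) (median 1.49), beside 40.6% and 27% over all rows. Pectin-modifying rows had the widest gaps: a pectin acetylesterase (LOC100788448) held 1209, 1308 and 922 against 8, 7 and 2 (7.56, adjusted p 4.58e-12), a pectinesterase (LOC100810565) 7910, 7856 and 8040 against 211, 162 and 131 (5.58, adjusted p 4.85e-11), and a polygalacturonase (LOC100797601), which cuts pectin chains, 413, 252 and 586 against 0, 1 and 3 (7.63). Xyloglucan enzymes loosen and rejoin wall polymers, and 11 of 16 rows were higher and 1 lower, LOC100817874 at 208, 216 and 202 against 1100, 867 and 793 (-2.12). The expansin EXP4 was lower, at 145, 133 and 164 against 1693, 757 and 185 (-2.07, adjusted p 0.0181), a call that was lost without leaf EFN library 1 (adjusted p 0.128) or library 2 (adjusted p 0.0538). Proline-rich wall protein 3 (PRP3), a structural wall protein of legumes, had the strongest extrafloral signal of this kind, at 389, 374 and 397 against 81129, 68727 and 21509 (-6.99, adjusted p 1.09e-09), with means of 35232 in the stem EFN and 4659 in the leaf.

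Of 57 amino acid and nitrogen rows 28 (49.1%) were higher and 16 (28.1%) lower (median 0.82), beside 40.6% and 27% over all rows. Without 7 rows caught by the list's wording, 24 of 50 were higher and 14 lower. A cytosolic glutamine synthetase (LOC547621), which binds ammonium into glutamine, held 1639, 1113 and 1787 against 5, 2 and 32 (7.46, adjusted p 2.16e-08), and proline dehydrogenase (LOC100799876), the first step of proline breakdown, 301, 376 and 210 against 13, 8 and 17 (4.46, adjusted p 4.88e-08). Ferredoxin-dependent glutamate synthase of the plastid (LOC100809299) was lower, at 67, 57 and 56 against 983, 905 and 978 (-3.97, adjusted p 6.12e-10), as was an ammonium transporter (LOC100818774), at 27, 16 and 18 against 471, 621 and 817 (-4.90, adjusted p 1.45e-10). Phosphoenolpyruvate carboxylase, which feeds carbon to organic acids, was higher in PEPC4 (1834, 1703 and 1419 against 164, 173 and 122; 3.43) and lower in PEPC17 (335, 308 and 417 against 1182, 1134 and 1218; -1.75). Desaturases of membrane lipids also split, with FAD3-2b at 1139, 1168 and 1794 against 23, 21 and 25 (5.80) and FAD2-2 at 76, 45 and 66 against 2197, 2164 and 1420 (-4.93). The lists of glycolysis and respiration (29 of 61 higher, 18 lower) and of lipid metabolism (16 of 50 higher, 14 lower) had medians of 0.25 and 0.22 that changed sign under equal upper quartiles.

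Of 39 phenylpropanoid and flavonoid rows 9 (23.1%) were higher and 16 (41%) lower (median -0.55), beside 40.6% and 27% over all rows. W1, a flavonoid 3',5'-hydroxylase of purple soybean flowers, held 285, 308 and 264 against 2, 1 and 0 (7.30, adjusted p 1.11e-10). Flavanone 3-hydroxylase (F3H), an earlier step of the same branch, went the other way, at 11, 16 and 12 against 263, 332 and 307 (-4.44, adjusted p 2.24e-09), and so did a 4-coumarate CoA ligase-like row (4CL), at 73, 79 and 67 against 851, 1108 and 794 (-3.62).

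Ribosomal protein rows were lower in the floral nectary as a group, with 53 of 70 lower, 2 higher and a median of -1.18. They summed to 24826 to 28869 in the floral nectary and 51713 to 73510 in the leaf EFN. Of 15 rows described as chloroplastic, 30S or 50S 10 were lower, and of the other 55 rows 43 were lower. RPS6 of the cytosolic small subunit held 410, 359 and 402 against 1749, 1869 and 1451 (-2.11, adjusted p 2.54e-07), and the plastid row L28 (LOC100804320) 34, 22 and 19 against 445, 331 and 213 (-3.65). The higher rows were LOC100786575 (0.60) and LOC100779884 (1.51, adjusted p 0.0204), and both calls ended under equal upper quartiles (adjusted p 0.154 and 0.0669). The call of LOC100779884 was also lost without floral nectary library 3 (adjusted p 0.0901), leaf EFN library 1 (0.151) or leaf EFN library 2 (0.0528). Cell cycle and histone rows were near balance, at 11 of 41 higher and 8 lower (median 0.05), which became 9 higher and 13 lower under equal upper quartiles; cyclin D1-1 (LOC100818190), which starts the division cycle, held 109, 108 and 153 against 735, 562 and 364 (-2.12).

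**Figure D4:**
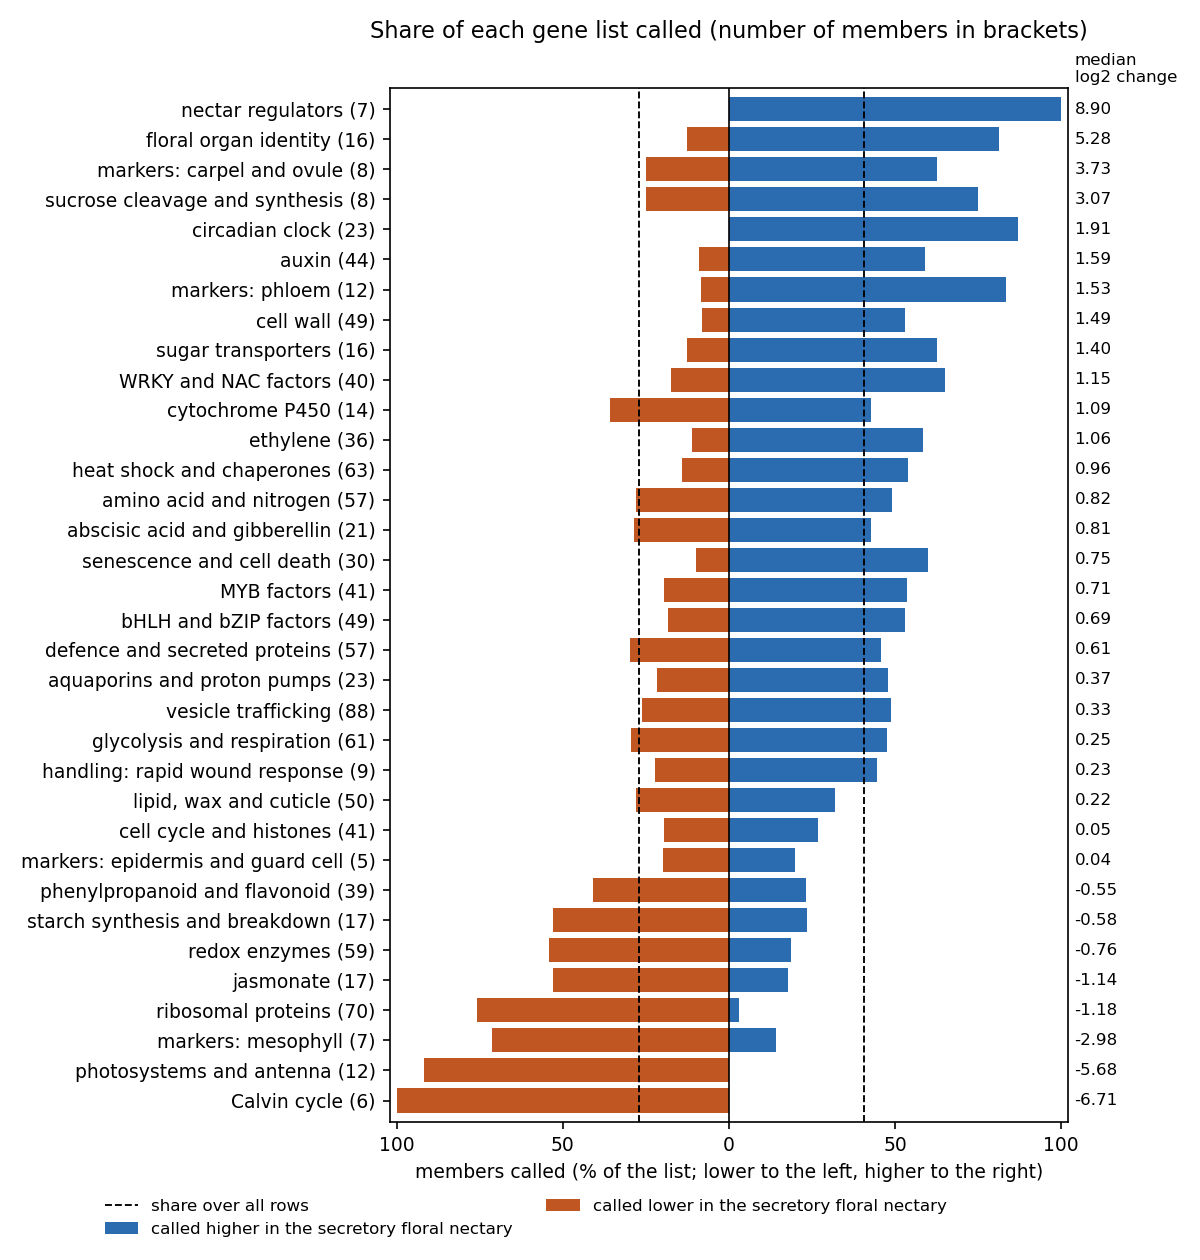
Share of the members of each gene list with 5 or more rows called higher (bars to the right) or lower (bars to the left) in the floral nectary, with dashed lines at the shares over all rows, 40.6% and 27%, and each list's median log2 change printed. The nectar regulators reach 100% higher and the Calvin cycle 100% lower.

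Vesicle trafficking, which carries secreted proteins, was higher in 43 of 88 rows (48.9%) and lower in 23 (26.1%; median 0.33). Over all rows the shares were 40.6% and 27%. Under equal upper quartiles 27 were higher and 34 lower, so the list had no direction apart from the scaling. Single rows differed beyond it: RABA4c (LOC100789008), a GTPase of secretory vesicles, held 279, 242 and 246 against 15, 8 and 6 (4.68, adjusted p 1.03e-09), and an ARF GTPase row (LOC547532) 2446, 2048 and 2411 against 18292, 15452 and 21228 (-2.99, adjusted p 4.31e-09). Of 12 phloem markers 10 were higher and 1 lower, with sums of 11016 to 12239 in the floral nectary and 4405 to 5775 in the leaf EFN. Without 3 rows caught by the list's wording, 7 of 9 were higher and 1 lower. Under equal upper quartiles 7 of the 12 were higher. Heat shock proteins and chaperones were higher in 34 of 63 rows (54%) and lower in 9 (14.3%), with a median of 0.96. In this list HSP23.9 of mitochondria was at 1156, 959 and 1104 against 35, 50 and 57 (4.50). Among MYB factors 22 of 41 (53.7%) were higher and 8 (19.5%) lower, and among bHLH and bZIP factors 26 of 49 (53.1%) and 9 (18.4%). Cytochrome P450 rows, with 6 of 14 (42.9%) higher and 5 (35.7%) lower, were close to the shares over all rows, 40.6% and 27%. Of 5 epidermis markers 1 was higher and 1 lower, and the 1 xylem marker was not called.

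Clock genes bear on the sampling hour. Of 23 rows 20 were higher and 0 lower in the floral nectary (median 1.91), or 13 of 16 when 7 auxin efflux carriers and ion channels caught by the list's wording were left out. RVE1 (LOC780539), a morning MYB factor, held 1478, 1585 and 1316 against 158, 132 and 193 (3.19, adjusted p 1.48e-09), and PRR95 (LOC100809490_XM_006604851.2), a daytime repressor, 2369, 3014 and 2144 against 315, 251 and 296 (3.11). The evening gene TOC1 held 713, 784 and 620 against 773, 677 and 534 (0.10, adjusted p 0.64; chosen after its values were seen). Values of 2 more clock rows, chosen after they were seen, were below those of the leaf EFN without overlap but were not called. LCL1, a morning gene like RVE1, held 1189, 1553 and 1688 against 2478, 2149 and 2270 (-0.65, adjusted p 0.0762), and was called lower under median ratios (adjusted p 0.0233), equal upper quartiles (adjusted p 0.00767) and a fit of the 6 libraries alone (adjusted p 0.00561). A PRR37-like row (LOC100785796), of the PRR repressor family, held 460, 500 and 551 against 632, 673 and 945 (-0.55, adjusted p 0.117), and was called lower under the same alternatives (adjusted p 0.0472, 0.0163 and 0.0181). Floral nectaries were cut 3 h after dawn and the hour of the leaf EFN is not given, so hour and tissue cannot be told apart for these rows.

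For the floral rows shown in the map of all 7 groups, levels in the stem EFN and the leaf were mostly low like those of the leaf EFN, whereas the extrafloral rows differed among the vegetative tissues: the lectin-domain match was high in both extrafloral nectaries and at 1.67 in the leaf, while the Rubisco small subunit averaged 51204 in the leaf. Called rows numbered 4352 (68.4%) for the floral nectary against the stem EFN and 342 (5.38%) for the leaf EFN against the stem EFN, comparisons that share libraries with the main one and with each other. Abundant rows alike in both glands included the 14-3-3 protein GF14A, a regulator that binds phosphorylated proteins, at 5129, 4580 and 5217 against 5051, 5307 and 5175 (-0.06, adjusted p 0.82), with overlapping libraries.

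**Figure D5:**
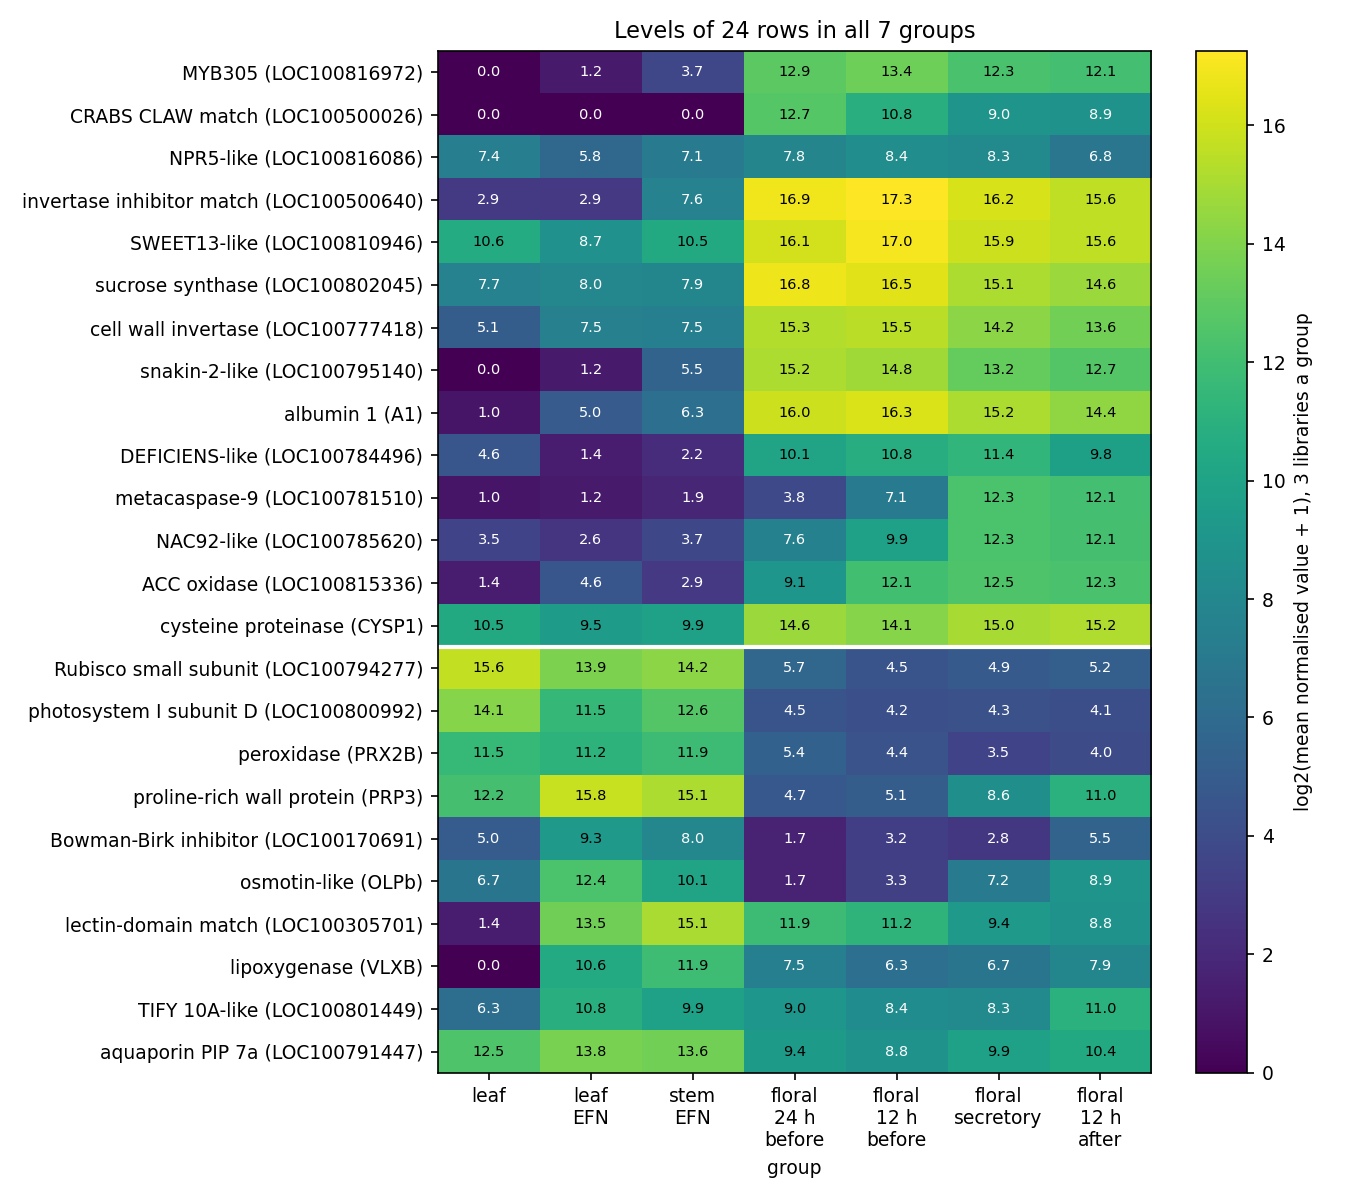
Colour gives log2(mean value + 1) of 3 libraries for 24 rows (vertical) in the 7 groups of the series (horizontal). The 14 rows above the white line are high in the secretory floral nectary and the 10 below it in the leaf EFN; CRABS CLAW match values fall from 6571 at 24 h before anthesis to 484 to 528 in the secretory libraries.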

How the data were processed

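RNA of common bean tissues was sequenced as 50 bp paired reads on 2 lanes from 21 libraries in 7 groups of 3. Per the file headers, the authors mapped the reads to soybean transcripts and deposited upper-quartile-normalized mapped counts, a normalized score and not raw counts, with their own Y or N call of each difference. The submitters' processing notes name DESeq without a version; the mapper is not given in the sources used here. Values were used as deposited, read depth was estimated from the steps between low values, and no counting model was run. limma 3.58.1 in R 4.3.3 was fitted to log2(value + 1) over all 21 libraries with 7 group means, 14 residual degrees of freedom and an intensity trend; tests were two-sided, adjusted by Benjamini-Hochberg over 6359 rows, and called at 0.05. The fit was tested on simulated data.

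A rule selected 199 named genes, not all of which are described in the text. They were the 12 most increased and 12 most decreased called rows with no overlap between tissues and a mean in the higher tissue of at least 492.9 (the 75th percentile of row means), up to 3 members per list and direction by smallest adjusted p, all nectar regulators, and 6 abundant rows with the smallest change (means of at least 1791.6 in both tissues, the 95th percentile). Other rows are said to be chosen after their values were seen. The members and the 36 gene lists were chosen with earlier results of these data known. List membership follows the soybean description or the Arabidopsis match in the table (5757 rows have one), and no set test was made. Some lists caught other names by their wording. Without these, 25 of 41 auxin rows were higher and 4 lower, and 25 of 54 defence rows were higher and 17 lower. The glycolysis list then had 28 of 60 higher and 18 lower, and the cell cycle list 11 of 40 and 8. Replicate numbers do not pair the libraries. The 17 alternatives varied the pseudocount, low-value filter, scaling, libraries fitted, replicate block, variance trend, threshold and each left-out library.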

Additional observations from a re-analysis of the deposited data

How the results depend on the processing

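The count of 4297 called rows (2581 higher, 1716 lower) lay between 4156 and 4440 under the alternative pseudocounts, filters, scalings, libraries, block and variance trend; the filter at a mean of 20 in either tissue was chosen after seeing the data. Testing against a 2-fold change moved it to 1825 (1198 higher, 627 lower), and calls within the gene lists from 772 to 400. Leaving out 1 library of the 6 gave 3976 to 4122 rows, 2390 to 2540 higher and 1526 to 1732 lower, with 718 to 750 list rows and 187 to 191 of the 199 named genes called, against 193 with all libraries; the 2-fold test called 164. A replicate block gave 4247 rows; same-numbered libraries correlated at -0.041, -0.082 and -0.020, so the numbers were not taken as pairs. List counts that depended on the scaling or on 1 library include cell wall rows called lower (4, or 8 under equal upper quartiles and 1 without leaf EFN library 1 or 2), auxin rows lower (4, or 7), starch rows higher (4, or 2), ribosomal rows higher (2, or 0), clock rows lower (0, or 2) and wound rows lower (2, or 1 in every fit that left out a library). Rows with no called change that switched sign when 1 library was left out were LOC100802039 (-0.21 to 0.14), LOC100305866 (-0.18 to 0.10), LOC100793714 (-0.16 to 0.12), LOC100798042 (-0.18 to 0.060), LOC100781043 (-0.32 to 0.15) and TOC1 (-0.042 to 0.22; -0.048 with median ratios and -0.23 with equal upper quartiles). The causes were not tested. The lowest values limit the size of a change: rows listed at 0 in the leaf EFN have no fold, and 3053000 to 3633000 reads a library leave a value of 1 or 2 near 1 or 2 reads.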

Other observations

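Some values belong to no comparison above, and the rows named here were chosen after their values were seen. The row LOC100101840, which matches an alpha/beta-hydrolase, was the most abundant of the leaf EFN, at 90493, 90656 and 235354, or 2.94, 3.16 and 8.995% of all values in those libraries. It held 84118, 61755 and 36551 in the floral nectary and was not called (-1.12, adjusted p 0.0966), although the libraries did not overlap; under equal upper quartiles it was called lower (adjusted p 0.0357). Library 3 of the leaf EFN held the highest value of this row among the 6 libraries.

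Soybean copies matched to 1 Arabidopsis gene could have opposite directions. Of 471 Arabidopsis genes with more than 1 row, 8 had 1 row at least 4-fold higher and another at least 4-fold lower in the floral nectary. Peptide transporter 3 was matched by LOC100807002, at 419, 493 and 213 in the floral nectary and listed at 0 in the leaf EFN, and by LOC100800628, at 89, 91 and 104 against 4853, 4286 and 4569 (-5.58, adjusted p 6.55e-14). Annexin 8, a calcium-dependent membrane-binding protein, was matched by ANN14, at 1086, 1139 and 1224 against 151, 139 and 94 (3.18), and by LOC100784424, at 296, 256 and 256 against 3900, 4368 and 1889 (-3.56).

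Some abundant transcripts of the leaf EFN were lower in the leaf. In 28 rows that were lower in the floral nectary with no overlap, the leaf EFN mean was at least 1000 and at least 4 times the leaf mean, which itself reached 4659 for PRP3 and 1851 for PIP1. These rows include PRP3, OLPb, GMIPER1, PIP1, 4 rows of jasmonate repressors of the JAZ family, and the high-affinity nitrate transporter NRT2, at 1120, 1595 and 656 against 63, 63 and 57 in the floral nectary (-4.09, adjusted p 4.39e-05).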
